A study of Macaca mulatta with 52 samples.

Results

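A run of closely numbered Ensembl identifiers was very abundant in RNA libraries of single rhesus monkey (Macaca mulatta) embryos, where it held 2.85% to 70.3% of a library's counts. The block was taken as every identifier numbered from ENSMMUG00000028670 to ENSMMUG00000028699 in the count table, and 13 of the 26309 identifiers fell in it. The members were chosen by their summed counts over these libraries, as a run of very abundant identifiers, so their total abundance is a description here and not a test. None of the 13 had a gene name in the annotation tables used here, and no genome or sequence was used. They are treated as candidate genes of the mitochondrial genome from the identifier block alone, and no single member is named as a particular gene.

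The study sequenced RNA of single preimplantation embryos, and each library is an embryo. Per the labels' protocols, females were stimulated with hormones, oocytes matured in vivo were inseminated in vitro, cumulus cells were pipetted off, and culture was with or without the hormone relaxin. The labels do not say which embryos had relaxin. Libraries came from 2 kits. SoLo is a low-input kit with removal of ribosomal sequences after a first amplification, and SPIA uses linear amplification of cDNA with a chimeric primer. The SoLo libraries were from 4 embryos at the 8-cell stage, 3 at the morula and 6 at the expanded blastocyst stage. The SPIA libraries were from 9 embryos at the 8-cell stage, 11 at the morula stage, 14 at the expanded blastocyst stage and 2 labelled as delayed blastocysts. The number in an embryo's title (for example 020816) is called its code. Embryos with the same code may share parents or a day, which the labels do not state, so p-values measure the spread between these embryos only.

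The mitochondrial genome is a small circle present in many copies per cell. In mammals it encodes core subunits of the respiratory chain complexes and of ATP synthase, with the ribosomal and transfer RNAs needed to translate them. It is transcribed as long RNAs from both strands, which are cut into single transcripts, most of which then gain poly(A) tails. In mammalian embryos the mitochondria come from the oocyte, and in several mammals replication of their genome is known to resume around the blastocyst stage.

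The 49 libraries used had totals of 0.601 to 21.0 M (mega) counts in SPIA and 5.70 to 10.6 M in SoLo. The lowest total, 0.601 M, was that of expanded blastocyst 111715_05. Counting error was small beside the spread between embryos, since the widest exact 95% interval of the block's share reached 0.125 percentage points to either side. The summed 8-cell markers were ZSCAN4, LEUTX, TPRX1 and RBP7. Their medians were 1325 and 567 CPM (counts in each 1 M counts of a library) in 8-cell embryos of SoLo and SPIA. Medians of the later groups were at most 16.2, but single libraries reached 672 CPM in SPIA morulas and 69.1 in SoLo expanded blastocysts. The summed trophectoderm markers had medians of 1719 and 413 CPM in expanded blastocysts of SoLo and SPIA. Morulas had medians of 61.1 and 28.4 CPM, with the highest at 935 in SoLo and 501 in SPIA. The lowest SPIA expanded blastocyst had 41.6 CPM. Sums of cumulus cell markers reached 2072 CPM in 8-cell SPIA libraries and at most 27.2 in later SPIA groups. In SoLo they reached 2803 CPM in 8-cell libraries and at most 16.6 in later groups.

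Of the 30 numbers in the range, 17 were absent from the table. The 13 present stood in unbroken file order from ENSMMUG00000028699 down to ENSMMUG00000028670. Together they held 32.4% of all counts over the 49 libraries. Members took the first 8 places among all identifiers by counts, and 12 of the first 20. ENSMMUG00000028677 came first with 6.80% of all counts. ENSMMUG00000028673 followed with 5.22% and ENSMMUG00000028695 with 4.63%. These 3 made up 21.0%, 16.1% and 14.3% of the block. At the low end, ENSMMUG00000028684 held 0.146% of all counts and ENSMMUG00000028683 held 0.388%. Transcript lengths were not known, so these are shares of counts and not levels per length. The boundary of the block was sharp on its lower side only. Below it, ENSMMUG00000028667 and ENSMMUG00000028666 had 1 and 0 counts in all libraries together. Above it, NLRP5 (ENSMMUG00000028710) and NLRP4 (ENSMMUG00000028711), maternal-effect family genes of the oocyte, held 0.00276% and 0.0536%. The share of NLRP4 was thus nearer to the 0.146% of ENSMMUG00000028684, the lowest member.

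In SPIA the block on average took a larger part of the library in morulas and expanded blastocysts than in 8-cell embryos. The lowest, median and highest shares of all counts were 2.85%, 25.9% and 45.9% in 8-cell embryos, 16.6%, 53.3% and 60.5% in morulas, and 24.9%, 56.9% and 70.3% in expanded blastocysts. The means were 22.7% ± 13.7 (SD, n = 9), 44.5% ± 16.9 (SD, n = 11) and 51.7% ± 13.3 (SD, n = 14). The ranges of all 3 stages overlapped. The lowest 8-cell embryos were 011516_03 at 2.85% and 020816_09 at 3.64%. The 2 delayed blastocysts, at 42.3% and 62.4%, lay inside the range of expanded blastocysts. A larger share can come from more copies of these RNAs, more mitochondria or less of the other RNA, and bulk counts from an embryo cannot tell these apart.

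In SoLo the shares were lower and less spread. The 4 8-cell embryos had 10.7%, 11.7%, 15.4% and 22.02%. The 3 morulas had 19.6%, 20.2% and 29.8%. The 6 expanded blastocysts ranged from 18.6% to 36.9% with a median of 23.1%. The means were 15.0% ± 5.14 (SD, n = 4), 23.2% ± 5.74 (SD, n = 3) and 24.9% ± 6.62 (SD, n = 6). The highest 8-cell embryo lay within the range of the later stages.

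**Figure D1:**
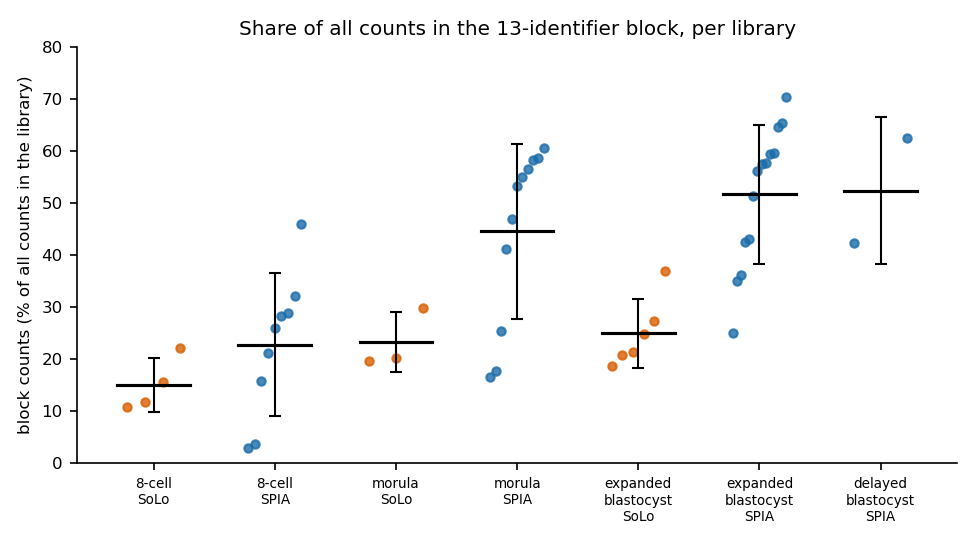
Share of all counts held by the 13 identifiers (percent, y axis), with kit and stage on the x axis; points are embryos, long bars are means and whiskers are 1 SD. SoLo means lie between 15.0% and 24.9%, and SPIA means between 22.7% and 52.4%.

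Depth moved with the share in SPIA. Among 8-cell embryos the share was 32.0% ± 10.4 (SD, n = 4) in libraries under 12 M counts and 15.3% ± 11.95 (SD, n = 5) in those above. Among morulas it was 53.7% ± 6.61 (SD, n = 8) under 12 M and 19.9% ± 4.84 (SD, n = 3) above. Every expanded blastocyst library was under 12 M, with a share of 51.7% ± 13.3 (SD, n = 14). At like depth their mean was thus not above that of morulas. The part of depth in the stage difference was not tested beyond fits within each depth class, which are given with the morula comparison. Cumulus cell markers were highest in 3 8-cell embryos of SPIA. These were 020816_06 with 452, 020816_07 with 2072 and 112815_02 with 1136 CPM, and their block shares were 28.2%, 25.9% and 28.7%. The other 6 8-cell embryos of SPIA spanned 2.85% to 45.9%. They were not all free of these markers. Embryo 011516_02 had 174, 020816_09 had 75.6 and 011516_03 had 31.9 CPM, where later SPIA groups had at most 27.2. Their block shares were 45.9%, 3.64% and 2.85%. In SoLo the same 3 embryos were also high, with 658, 2803 and 1302 CPM, and only 020816_08 was low, with 14.8. Their part in the SoLo stage differences was not tested.

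Each member was then compared between stages as counts per total count, with edgeR's quasi-likelihood test fitted on the whole table. A member is called where its Benjamini-Hochberg adjusted p over all genes tested was under 0.05. All fold changes are log2 differences in the share of all counts, given with their standard errors (SE). On this scale a larger block share lowers the shares of genes outside it. Values over all genes are therefore not independent of the block.

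Morulas had higher shares than 8-cell embryos for every member in SPIA, and 4 of the 13 were called, all of them higher. Over all genes tested, 5.87% were called higher and 17.6% in either direction. The median log2 fold change was 0.92 over the members and −0.45 over all genes tested. ENSMMUG00000028680 had the smallest adjusted p, with a log2 fold change of 1.498 (SE 0.37, edgeR adjusted p = 0.00568). Its lowest, median and highest shares of all counts were 0.223%, 0.885% and 1.43% in morulas, and 0.0321%, 0.338% and 0.531% in 8-cell embryos, so the groups overlapped. ENSMMUG00000028678 rose by 1.30 (SE 0.37, edgeR adjusted p = 0.0146), ENSMMUG00000028677 by 1.15 (SE 0.34, 0.0167) and ENSMMUG00000028695 by 1.17 (SE 0.38, 0.0276). For ENSMMUG00000028677, the most abundant member, the lowest, median and highest shares were 3.12%, 11.6% and 17.5% in morulas, and 0.519%, 4.99% and 9.15% in 8-cell embryos. The other 9 members had log2 fold changes of 0.39 to 1.80 and did not pass.

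How many members passed depended on the scaling and on which libraries were fitted. With TMM factors 7 were called, and with counts outside the block as library size 8 were, all higher. The median of all genes was −0.45 with total counts and −0.14 with TMM. Within libraries under 12 M counts 5 members were called. Among libraries above 12 M, 3 morulas against 5 8-cell embryos, none was. Within code 020816, the only code with both stages, 3 morulas against 5 8-cell embryos gave 1 called member, which was ENSMMUG00000028683. Without the 3 8-cell embryos with high cumulus markers 6 were called.

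Between expanded blastocysts and morulas in SPIA 3 of the 13 members were called, 2 higher and 1 lower, against 13.9% of all genes tested, 4.49% higher and 9.41% lower. ENSMMUG00000028689 rose by 1.09 (SE 0.30, edgeR adjusted p = 0.0122) and ENSMMUG00000028682 by 0.98 (SE 0.30, edgeR adjusted p = 0.0225). ENSMMUG00000028680 fell by 0.97 (SE 0.32, edgeR adjusted p = 0.0349). The shares of ENSMMUG00000028689 were 1.48%, 3.88% and 4.67% (lowest, median and highest) in expanded blastocysts and 0.755%, 1.36% and 4.36% in morulas. Those of ENSMMUG00000028682 were 1.49%, 2.65% and 3.88% in expanded blastocysts and 0.494%, 1.33% and 2.96% in morulas. Those of ENSMMUG00000028680 were 0.160%, 0.433% and 0.959% in expanded blastocysts and 0.223%, 0.885% and 1.43% in morulas. All 3 pairs of ranges overlapped. With TMM factors only ENSMMUG00000028689 passed (1 called), and with counts outside the block as library size none did. The groups also differed in depth. All 14 expanded blastocysts were under 12 M counts, while 3 of the 11 morulas were above, with a mean block share of 19.9%. No title code held both of these stages, so the part of the code could not be tested.

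Expanded blastocysts against 8-cell embryos gave the widest difference in SPIA. Of the 13 members, 10 were called, all higher, where 10.3% of all genes tested were called higher and 38.0% in either direction. The median log2 fold change was 1.28 over the members and −0.73 over all genes. With total counts as library size, the block's larger share itself lowers the second value. The smallest adjusted p was that of ENSMMUG00000028682, which rose by 1.79 (SE 0.33, edgeR adjusted p = 5.53e-05). It had 1.49%, 2.65% and 3.88% of counts in expanded blastocysts and 0.0849%, 0.900% and 1.25% in 8-cell embryos, so every expanded blastocyst lay above every 8-cell embryo. ENSMMUG00000028686 rose by 1.28 (SE 0.28, edgeR adjusted p = 0.000347), ENSMMUG00000028689 by 1.48 (SE 0.33, 0.000511) and ENSMMUG00000028677 by 1.39 (SE 0.33, 0.00117). ENSMMUG00000028678 rose by 1.46 (SE 0.36, edgeR adjusted p = 0.00177), ENSMMUG00000028684 by 1.83 (SE 0.53, 0.00656) and ENSMMUG00000028673 by 1.12 (SE 0.33, 0.00679). ENSMMUG00000028670 rose by 1.21 (SE 0.36, edgeR adjusted p = 0.00795), ENSMMUG00000028672 by 1.02 (SE 0.35, 0.0201) and ENSMMUG00000028683 by 2.71 (SE 0.96, 0.0255). The 3 that did not pass were ENSMMUG00000028699 at 0.72, ENSMMUG00000028695 at 0.75 and ENSMMUG00000028680 at 0.53. This comparison shares its 8-cell embryos with that of morulas and its expanded blastocysts with the one before. Its groups also differed in depth, since all 14 expanded blastocysts were under 12 M counts. Of the 8-cell embryos, 4 were under 12 M, with a mean block share of 32.0%, and 5 were above, with 15.3%. The calls given here are over both depth classes. No title code held both stages, so the part of the code could not be tested.

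The 2 delayed blastocysts gave no called member against expanded blastocysts (edgeR: 0 called, 0 at an unadjusted p under 0.05; DESeq2: 0 called). Over all genes tested, 0% were called. Member log2 fold changes lay between −0.74 and 0.83. The highest was that of ENSMMUG00000028689, whose shares of all counts in the 2 delayed blastocysts were 7.05% and 5.97%, against 1.48% to 4.67% in the 14 expanded blastocysts, without overlap. Both delayed blastocysts have the code 112515, and the 2 expanded blastocysts of that code had 2.21% and 2.23%. Within that code its log2 fold change was 1.55 (SE 0.35, edgeR adjusted p = 0.646), and that of ENSMMUG00000028684 was −1.45 (SE 0.71, edgeR adjusted p = 0.745).

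In SoLo the same stages gave the same direction for all 13 members between morulas and 8-cell embryos. There 2 members were called, both higher, against 6.78% of all genes called higher and 16.8% in either direction. ENSMMUG00000028684 rose by 0.94 (SE 0.27, edgeR adjusted p = 0.0224) and ENSMMUG00000028678 by 0.95 (SE 0.31, edgeR adjusted p = 0.0450). ENSMMUG00000028684 made up 0.358%, 0.499% and 0.609% of counts in the 3 morulas, and 0.177% to 0.357% in the 4 8-cell embryos, so the groups touched without overlap. The number called ran between 0 and 4 when each library in turn was left out. It was 0 without 8-cell embryo 020816_07, without 020816_08 or without morula 022916_01, and 4 without 8-cell embryo 112815_02 or without an unnumbered expanded blastocyst of code 111215.

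Expanded blastocysts against morulas in SoLo gave no called member (edgeR: 0 called, 1 at an unadjusted p under 0.05; DESeq2: 0 called), where 1.53% of all genes were called. Without morula 022916_01, 3 were called. Against 8-cell embryos, expanded blastocysts had 7 called members, all higher, where 13.3% of all genes were called higher and 39.6% in either direction. These were ENSMMUG00000028686 (log2 fold change 1.17, SE 0.26, edgeR adjusted p = 0.00190), ENSMMUG00000028689 (1.47, SE 0.33, 0.00216) and ENSMMUG00000028682 (1.37, SE 0.31, 0.00219). The others were ENSMMUG00000028678 (1.00, SE 0.28, edgeR adjusted p = 0.00805), ENSMMUG00000028684 (0.83, SE 0.23, 0.00864), ENSMMUG00000028673 (0.86, SE 0.31, 0.0384) and ENSMMUG00000028677 (0.67, SE 0.25, 0.0411). ENSMMUG00000028682 had 1.52%, 1.86% and 2.71% of counts (lowest, median and highest) in expanded blastocysts, against 0.553%, 0.711% and 1.07% in 8-cell embryos, with no overlap. The median log2 fold change was 0.83 over the members and −0.41 over all genes. Leaving out libraries in turn gave 5 to 9 called members. Embryos sequenced with SoLo were also sequenced with SPIA where both titles are given, so the kits are not independent sets of embryos.

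**Figure D2:**
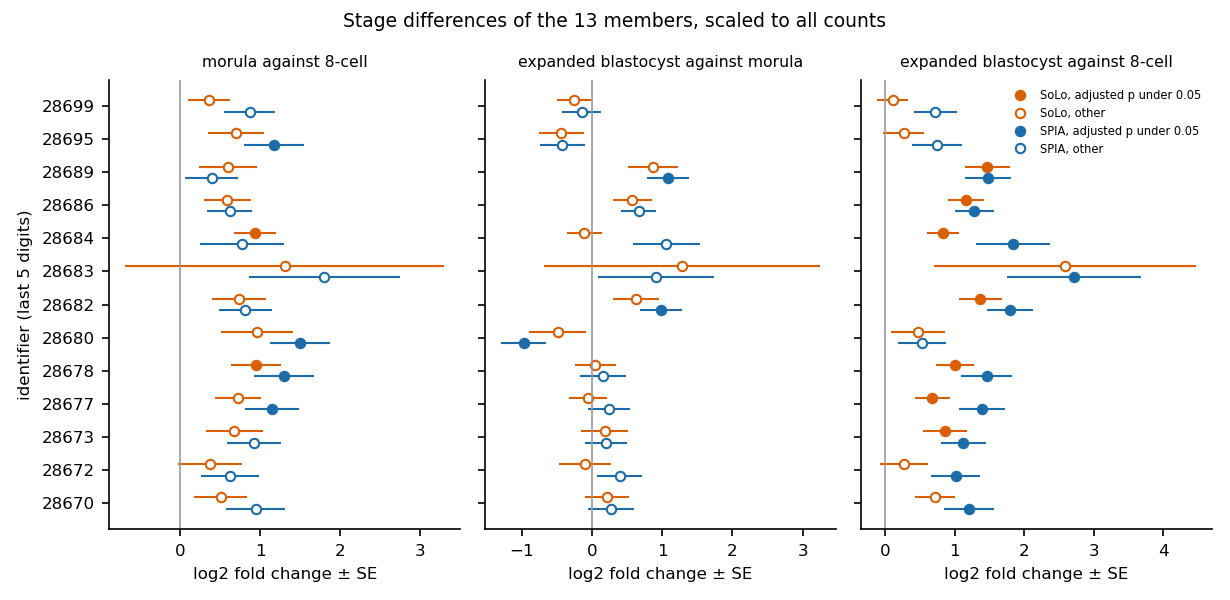
Log2 fold change ± SE (x axis) of each member (y axis, last 5 digits) in 3 stage comparisons, from edgeR with total counts as library size; orange is SoLo and blue is SPIA, and filled points have an adjusted p under 0.05. All members lie right of 0 in both comparisons with 8-cell embryos, and the wide bars belong to ENSMMUG00000028683.

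The kits were compared over embryos sequenced with both. For 11 embryos the titles pair the libraries, and in all 11 the block had a lower share in SoLo than in SPIA. The ratio of SoLo to SPIA ran from 0.330 to 0.766 with a median of 0.509. Morula 022916_01 had 29.8% in SoLo and 58.6% in SPIA. The narrowest gap was in 8-cell embryo 112815_02, with 22.02% in SoLo and 28.7% in SPIA. The widest was in expanded blastocyst 111715_02, with 18.6% in SoLo and 56.2% in SPIA. That embryo was the only one of the 11 whose libraries did not deviate together from their group means over genes (r = −0.028), and without it the lowest ratio was 0.412. The unnamed identifier ENSMMUG00000038704, which is outside the block, had 0 counts in all SPIA libraries and 1.34% to 7.34% of counts in SoLo, and leaving it out of the total raised the SoLo shares only to means of 15.4%, 24.2% and 26.2%.

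The fit used 13 libraries per kit, with stage in the model. Of the 13 members, 10 were called lower in SoLo and 1 higher, where 3.36% of all genes tested were called lower, 30.5% higher and 33.9% in either direction. ENSMMUG00000028683 had the largest fall, of 3.25 (SE 1.06, edgeR adjusted p = 0.0217). ENSMMUG00000028686 fell by 1.95 (SE 0.15, edgeR adjusted p = 5.35e-12), ENSMMUG00000028677 by 1.34 (SE 0.15, 6.33e-09) and ENSMMUG00000028678 by 1.33 (SE 0.16, 5.13e-08). ENSMMUG00000028699 fell by 0.96 (SE 0.13, edgeR adjusted p = 5.63e-07), and the other 5, which were ENSMMUG00000028695, ENSMMUG00000028673, ENSMMUG00000028670, ENSMMUG00000028672 and ENSMMUG00000028689, by 0.54 to 0.76. ENSMMUG00000028684 rose by 2.28 (SE 0.37, edgeR adjusted p = 4.58e-05). ENSMMUG00000028682 (−0.40, edgeR adjusted p = 0.0627) and ENSMMUG00000028680 (0.36, edgeR adjusted p = 0.159) did not pass. With the embryo as a block for the pairing, over the 11 embryos, ENSMMUG00000028682 was called lower (−0.44, SE 0.09, edgeR adjusted p = 0.000518). ENSMMUG00000028683 was not called over those 11 without the block (edgeR adjusted p = 0.0650). The sizes of these changes depended on the scaling, since the median of all genes was 0.74 with total counts and 0.06 with TMM factors. With TMM 11 members were called lower and 1 higher, and the fall was 1.69 for ENSMMUG00000028699, 1.25 for ENSMMUG00000028689 and 1.14 for ENSMMUG00000028682 (edgeR adjusted p = 0.000206). ENSMMUG00000028684 was still higher in SoLo, by 1.49, while ENSMMUG00000028680 turned to −0.34 and did not pass.

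Whether the stage differences depended on kit was tested as an interaction, and no member passed (edgeR: 0 called and 0 at an unadjusted p under 0.05 in each stage contrast; DESeq2: 0 called), where 0%, 0% and 0.0336% of all genes were called. The interaction fits did not use the pairing of the embryos, so their standard errors include the spread between embryos. A p that misses the threshold does not show that the stage differences were alike in both kits.

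Mutual ratios within the block were read from each member's share of the block's counts. In 11 of 11 paired embryos ENSMMUG00000028684, ENSMMUG00000028680 and ENSMMUG00000028682 took a larger part of the block in SoLo than in SPIA. In 11 of 11 ENSMMUG00000028683, ENSMMUG00000028686, ENSMMUG00000028678 and ENSMMUG00000028677 took a smaller part. With the block's counts as library size, these 7 were the members called by edgeR. Over all genes 68.2% were called, 67.7% higher and 0.482% lower, because that scaling carries the block's own change into every gene outside it. The median ratios of SoLo to SPIA were 16.3 for ENSMMUG00000028684, 2.23 for ENSMMUG00000028680 and 1.48 for ENSMMUG00000028682. They were 0.755 for ENSMMUG00000028677, 0.738 for ENSMMUG00000028678, 0.533 for ENSMMUG00000028686 and 0.223 for ENSMMUG00000028683. For the remaining 6 members the median ratio lay between 0.995 and 1.35.

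On the share of all counts ENSMMUG00000028683 had the widest difference between kits, with a median ratio of SoLo to SPIA of 0.0920, and ENSMMUG00000028684 followed with 8.28 and was higher in SoLo in 10 of 11 embryos. On the share of the block ENSMMUG00000028684 had the widest. Among the 4 paired 8-cell embryos its share of the block was 1.81%, 1.66%, 1.77% and 1.62% in SoLo, against 0.364%, 0.130%, 0.104% and 0.0992% in SPIA. Among the 3 paired morulas it was 1.77%, 2.55% and 2.04% in SoLo, against 0.121%, 0.112% and 0.125% in SPIA. Among the 4 paired expanded blastocysts it was 1.88%, 1.72%, 2.03% and 1.75% in SoLo, against 0.358%, 0.783%, 0.05002% and 0.0715% in SPIA. No SoLo library overlapped with any SPIA library. Scaled to the block, its log2 fold change was 3.25 (SE 0.31, edgeR adjusted p = 8.98e-11). Over all libraries its share spanned 1.81-fold in SoLo and 16.7-fold in SPIA, so it was among the steadier members in one kit and among the most variable in the other.

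ENSMMUG00000028680 had a log2 fold change of 1.26 scaled to the block (edgeR adjusted p = 1.19e-06), and its ratio of SoLo to SPIA lay between 1.84 and 3.25 in the 11 embryos. ENSMMUG00000028686 fell by 1.01 on that scale (edgeR adjusted p = 2.99e-06). Its share of the block was 2.98% to 7.63% in SoLo against 5.30% to 15.2% in SPIA over the paired embryos, lower in SoLo in each of them.

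**Figure D3:**
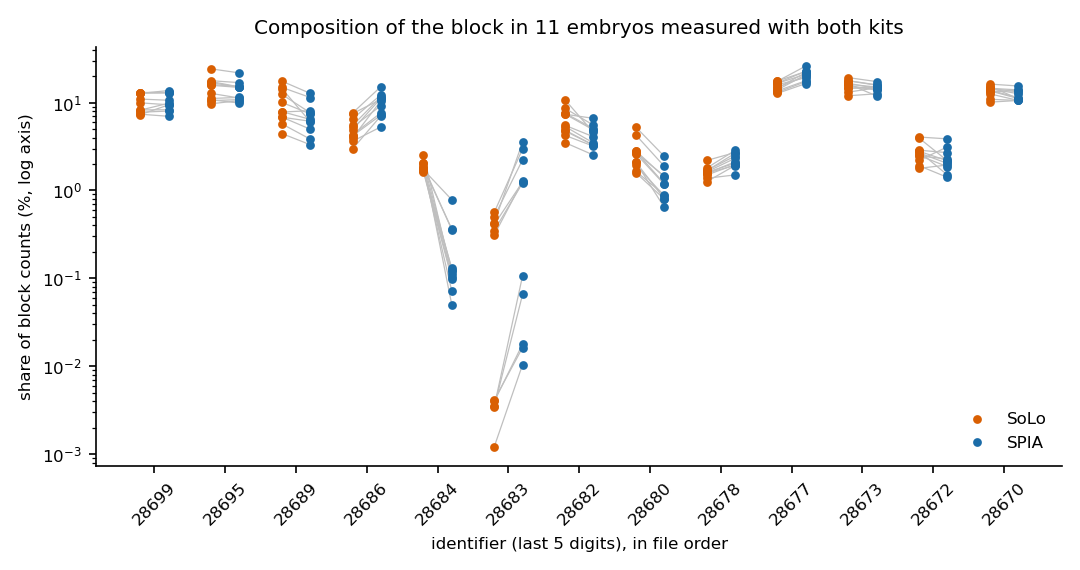
Share of the block's counts (percent, log axis) held by each member (x axis, last 5 digits, in file order) in 11 embryos; orange points are SoLo, blue points are SPIA and grey lines join an embryo. ENSMMUG00000028684 is separated by kit in all 11 embryos, and ENSMMUG00000028683 splits into a high and a low set in both kits.

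Over the stages in SPIA, the share of each member in the block spanned a narrower fold range than the share of the block in the library, except for ENSMMUG00000028683. Across the 36 SPIA libraries the share of the block spanned 2.06-fold for ENSMMUG00000028673, 2.23-fold for ENSMMUG00000028699 and 2.28-fold for ENSMMUG00000028677. It spanned 11.3-fold for ENSMMUG00000028689, and 445-fold for ENSMMUG00000028683. Scaled to the block in SPIA, no member was called between morulas and 8-cell embryos (edgeR: 0 called, 0 at an unadjusted p under 0.05; DESeq2: 1 called), with 47.5% of all genes called. These edgeR standard errors borrow the spread of genes outside the block, so a miss does not show that the composition was steady. For ENSMMUG00000028673 the SE was 0.38 in edgeR without the filter, 0.16 in DESeq2 and 0.12 in voom. Between expanded blastocysts and morulas 1 was called, with 15.9% of all genes called and 12.4% called lower. This was ENSMMUG00000028680, which fell by 1.23 (SE 0.35, edgeR adjusted p = 0.0136) and passed in all 5 alternative fits of this comparison. Its share of the block was 0.884%, 1.20% and 1.53% (lowest, median and highest) in 8-cell embryos, 0.799%, 1.92% and 2.53% in morulas, and 0.514%, 0.757% and 1.36% in expanded blastocysts. Its median was thus highest at the morula stage, and the ranges overlapped.

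Other members had different medians of composition by stage in SPIA. The share of ENSMMUG00000028689 in the block had medians of 6.02%, 3.84% and 7.55% in 8-cell embryos, morulas and expanded blastocysts. ENSMMUG00000028682 had medians of 3.28%, 2.81% and 5.16%. ENSMMUG00000028699 had medians of 12.4%, 11.3% and 8.36%, and ENSMMUG00000028695 had 15.0%, 16.4% and 11.1%. None of the 4 passed in edgeR between expanded blastocysts and morulas. ENSMMUG00000028689, ENSMMUG00000028682 and ENSMMUG00000028695 did with DESeq2 (adjusted p = 0.0127, 0.000291 and 0.000813), with voom and in libraries under 12 M counts, and ENSMMUG00000028699 with voom alone. Between expanded blastocysts and 8-cell embryos only ENSMMUG00000028683 was called, higher by 1.74 (edgeR adjusted p = 0.0388, 65.9% of all genes called and 5.17% called higher). In SoLo, 2 members were called on this scale between expanded blastocysts and 8-cell embryos, where 45.6% of all genes were, 6.47% higher and 39.1% lower. ENSMMUG00000028689 rose by 0.83 (edgeR adjusted p = 0.0374) and ENSMMUG00000028699 fell by 0.66 (edgeR adjusted p = 0.0436). The share of ENSMMUG00000028699 was 7.29% to 8.28% of the block in SoLo expanded blastocysts and 10.95% to 13.02% in SoLo 8-cell embryos, without overlap. In SPIA it was 6.69% to 13.6% in expanded blastocysts and 10.2% to 14.9% in 8-cell embryos, and there the groups overlapped.

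**Figure D4:**
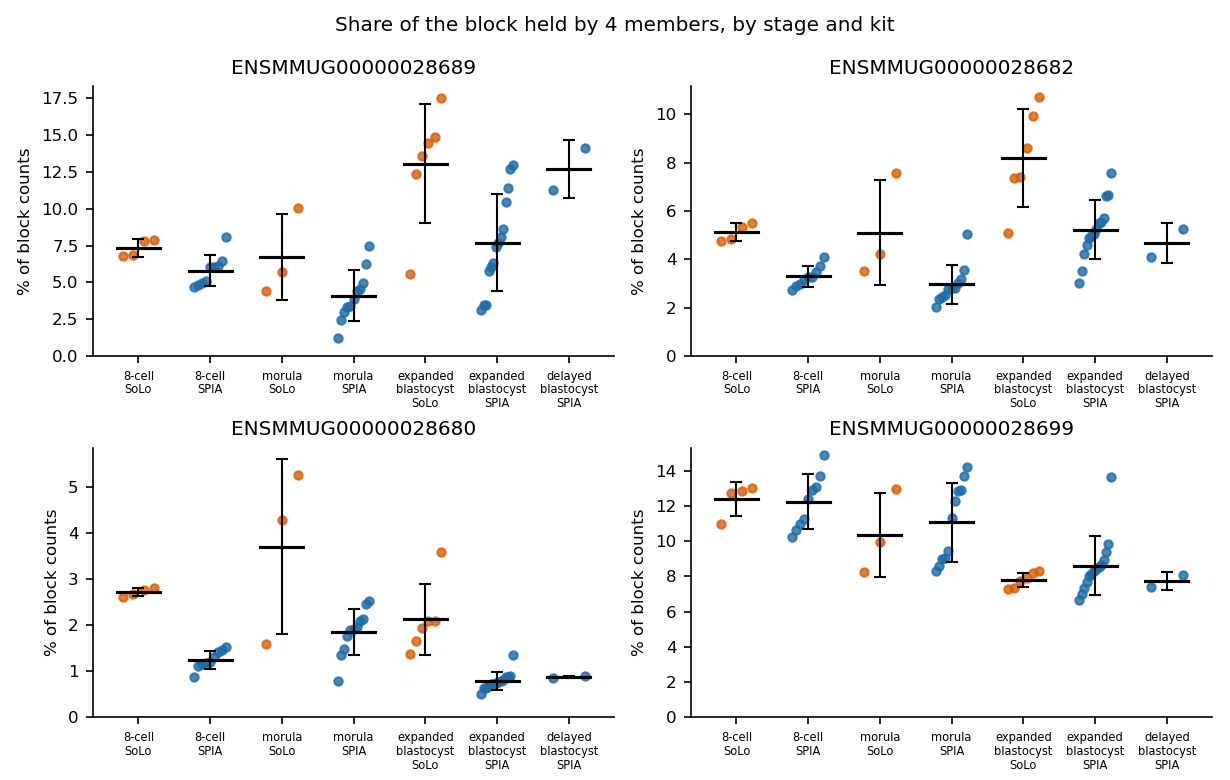
Share of the block's counts (percent, y axes starting at 0) held by 4 members, with kit and stage on the x axes; points are embryos (orange SoLo, blue SPIA), long bars are means and whiskers are 1 SD. ENSMMUG00000028680 has its highest medians in morulas (1.92% in SPIA and 4.28% in SoLo), and ENSMMUG00000028699 has lower medians in expanded blastocysts than in 8-cell embryos. The 3 SoLo morulas have 4.28% and 5.26% (code 021016) and 1.59% (022916_01) for ENSMMUG00000028680, and SoLo 8-cell embryos have 2.63% to 2.82%.

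ENSMMUG00000028683 did not follow stage or kit alone. Its share of the block formed a low and a high set of libraries, and the sets followed the title codes within a stage. In SPIA the 5 8-cell embryos of code 020816 had 0.107%, 0.0178%, 0.0657%, 0.0508% and 0.0131%, and the 3 morulas of code 021016 had 0.0163%, 0.0104% and 0.00944%. The other 28 SPIA libraries had 0.678% to 4.20% with a median of 1.43%. No SPIA library lay between 0.107% and 0.678%. The other 4 8-cell embryos, of codes 011516 and 112815, had 1.08%, 1.25%, 1.53% and 1.29%, within the range of the expanded blastocysts.

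The same embryos were low with both kits. In SoLo the 3 8-cell embryos of code 020816 had 0.00348%, 0.00398% and 0.00346% of the block, and the 2 morulas of code 021016 had 0.00412% and 0.00121%. The other 8 SoLo libraries had 0.308% to 0.564%. These low SoLo values rest on 41, 36, 30, 88 and 16 counts. Their exact 95% intervals, which cover counting error only, reach at most 0.00551%, far below the lowest of the other libraries. Code 020816 was low in its 8-cell embryos only, since its 3 SPIA morulas had 2.24%, 1.32% and 1.56%. In SoLo the share of the whole block was also lower in these embryos than in the other embryo of their stage. It was 10.7%, 11.7% and 15.4% in the low 8-cell embryos and 22.02% in 112815_02, and 19.6% and 20.2% in the low morulas and 29.8% in 022916_01. In SPIA the low embryos had 3.64% to 60.5%, and the others 2.85% to 70.3%. The part of the block's share in the low values was not tested.

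Fold changes of ENSMMUG00000028683 between stages therefore depend on which codes a stage holds. In SPIA the log2 fold change of morulas against 8-cell embryos was 1.80 (edgeR adjusted p = 0.187) over all codes and 6.14 (edgeR adjusted p = 0.0164) within code 020816. In SoLo the value of expanded blastocysts against 8-cell embryos was 2.59 (edgeR adjusted p = 0.305), and 7.84 (edgeR adjusted p = 0.0120) without 8-cell embryo 112815_02, the only 8-cell library of another code. The value of morulas against 8-cell embryos was 1.31 in SoLo, 6.56 without that embryo and −4.99 without morula 022916_01. Among 8-cell embryos, morulas and expanded blastocysts, the code and the stage can be separated only in code 020816. Code 112515 also held 2 stages, with 1.65% and 1.46% of the block in delayed and 1.17% and 0.983% in expanded blastocysts. What the codes stand for is not stated in the labels.

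**Figure D5:**
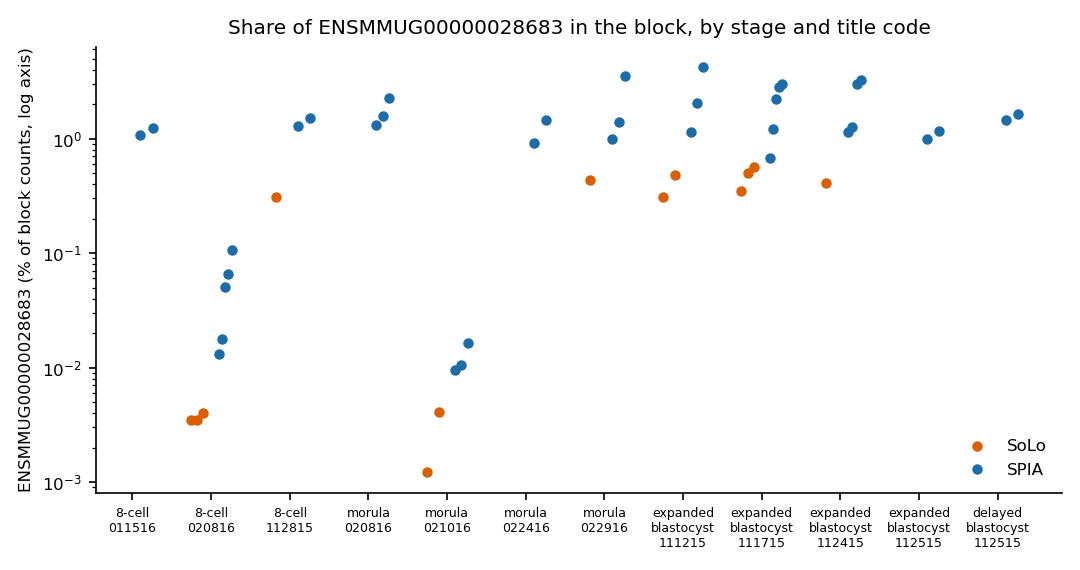
Share of the block's counts held by ENSMMUG00000028683 (percent, log axis) in each library, by stage and title code (x axis); orange is SoLo and blue is SPIA. The 8-cell embryos of code 020816 and the morulas of code 021016 are low in both kits, at or below 0.107%, and all other libraries are at or above 0.308%.

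Across the 36 SPIA libraries, members followed the block's share to different degrees. Spearman's rho between a member's share of all counts and the block's share was highest for ENSMMUG00000028677 (0.932), ENSMMUG00000028678 (0.928) and ENSMMUG00000028670 (0.920), and lowest for ENSMMUG00000028689 (0.546) and ENSMMUG00000028684 (0.584). These are descriptions, since each member is part of the sum and all libraries share their totals. Outside the block, the identifiers most like it among 7011 with a mean of at least 10 CPM were the unnamed ENSMMUG00000047918 (rho 0.694), CD53 (0.628), HSPE1 (0.612), the unnamed ENSMMUG00000021905 (0.612) and DPPA2 (0.607). HSPE1 encodes a chaperonin of the mitochondrial matrix, CD53 a tetraspanin of leukocytes and DPPA2 a protein of pluripotent cells. The same 5 had rho of 0.857, 0.643, 0.401, 0.703 and 0.775 over the 13 SoLo libraries. They were picked by their SPIA values, and the SoLo libraries share embryos with SPIA, so the SoLo values are no independent check.

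Nuclear genes that copy, transcribe and process the mitochondrial genome were read beside the block from a list of 47, whose roles are known mainly from human and mouse cells. Of these, 42 had an identifier, and 41 were tested in SoLo and 40 in SPIA. Morulas against 8-cell embryos gave 7 higher and 2 lower in SoLo, and 3 higher and 3 lower in SPIA. Over all genes 6.78% were called higher and 10.01% lower in SoLo, and 5.87% and 11.7% in SPIA. The list's median log2 fold change was 0.09 in SoLo and 0.24 in SPIA, beside −0.34 and −0.45 over all genes. Expanded blastocysts against morulas gave 0 higher and 2 lower in each kit, where 0.148% of all genes were called higher and 1.38% lower in SoLo, and 4.49% and 9.41% in SPIA. Expanded blastocysts against 8-cell embryos gave 7 higher and 8 lower in SoLo, and 1 higher and 5 lower in SPIA, where TMM factors gave 5 and 5. Over all genes 13.3% were called higher and 26.3% lower in SoLo, and 10.3% and 27.6% in SPIA. In expanded blastocysts against morulas the list's median was −0.43 in SoLo and −0.44 in SPIA, beside −0.03 and −0.26 over all genes. Against 8-cell embryos it was −0.42 and −0.34, beside −0.41 and −0.73. With total counts as library size, the list thus did not move one way with the block.

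Among regulators, PPRC1, a coactivator of nuclear genes for mitochondrial proteins, fell in morulas against 8-cell embryos by 1.93 in SoLo (edgeR adjusted p = 0.000294) and by 1.87 in SPIA (edgeR adjusted p = 0.000534). It had 96.5, 114 and 150 CPM in SoLo morulas (lowest, median and highest), against 345, 411 and 672 in SoLo 8-cell embryos, without overlap. NRF1, a transcription factor for respiratory chain genes, fell by 1.48 in SoLo (edgeR adjusted p = 0.0427) and by 2.65 in SPIA (edgeR adjusted p = 0.0490), and lost its call in 4 of 5 alternative fits in SoLo and 1 of 5 in SPIA. ESRRA, a nuclear receptor that drives energy metabolism genes, rose by 6.19 in SoLo (edgeR adjusted p = 0.000744) and by 6.07 in SPIA (edgeR adjusted p = 0.00785). It was low throughout, with 2.52, 8.80 and 21.3 CPM in SoLo morulas and at most 0.283 in SoLo 8-cell embryos. In SPIA the median morula had 0.190 CPM, and the highest 18.2, so the SPIA value rests on part of the morulas.

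Among RNA-handling genes, FASTKD1, a mitochondrial RNA-binding protein, rose in morulas against 8-cell embryos by 2.53 in SoLo (edgeR adjusted p = 0.000176) and by 2.36 in SPIA (edgeR adjusted p = 0.0192). PNPT1, which encodes a polynucleotide phosphorylase that degrades mitochondrial RNA, rose by 1.46 in SoLo (edgeR adjusted p = 0.0251) and by 1.42 in SPIA (edgeR adjusted p = 0.0440). MTPAP, the mitochondrial poly(A) polymerase, fell in expanded blastocysts against morulas by 0.95 in SoLo (edgeR adjusted p = 0.0434) and by 1.28 in SPIA (edgeR adjusted p = 0.00936). It lost its SoLo call in 2 of 5 alternative fits. GRSF1, a protein of mitochondrial RNA granules, fell by 1.51 in SoLo (edgeR adjusted p = 0.0175) and by 1.26 in SPIA (edgeR adjusted p = 0.0207). Its median was 106 CPM in SoLo expanded blastocysts, against 349 in SoLo morulas. Against 8-cell embryos, expanded blastocysts also had lower ELAC2, which cuts the ends of transfer RNAs, by 1.73 in SoLo (edgeR adjusted p = 9.41e-05) and 1.91 in SPIA (edgeR adjusted p = 0.00212). FASTKD5, which helps process mitochondrial messenger RNAs, fell by 1.47 in SoLo (edgeR adjusted p = 0.000192) and by 1.63 in SPIA (edgeR adjusted p = 0.0153). MTPAP, GRSF1, PPRC1 and ESRRA were also called in both kits in that comparison, the first 3 lower and ESRRA higher. In SPIA, GRSF1 lost its call against morulas in 1 of 5 alternative fits and against 8-cell embryos in 2 of 5, ELAC2 in 1 of 5 and FASTKD5 in 2 of 5, with the sign kept in each.

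Between kits the list depended on the scaling. With total counts 21 of its 40 tested genes were called higher and 2 lower in SoLo than in SPIA, and with TMM factors 5 and 6. Over all genes 30.5% were called higher and 3.36% lower with total counts. Over all genes the median log2 fold change was 0.74 with total counts and 0.06 with TMM.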

How the data were processed

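The table holds raw read counts for each Ensembl identifier as the authors deposited them, whole numbers without normalisation. HISAT2 and DESeq2 were used, per the submitters' processing notes. The sources used here do not give versions, the read counter, build, annotation or strandedness. Members that overlap or lie on opposite strands may share counts. Of 52 columns, 49 matched a sample by title or, for 2 columns of code 111215, by group, and 3 were not used. Reads carry no molecular identifiers.

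Shares are counts over the total or over the block's counts in a library. The main test was the quasi-likelihood test of edgeR 4.0.16 under R 4.3.3 (robust, filterByExpr, total counts as library size) on the whole table, groups of a kit fitted together. Scripts were tested on simulated data. DESeq2 1.42.0 and limma 3.58.1 (voom, with embryos of a title code as correlated) were alternatives, as were other scalings, filters, library subsets and each library left out. The comparison of kits took embryos found in both, with the pairing taken from titles that name the same embryo. Deviations of 11 pairs correlated with a median of 0.276, above 0.1 in 10 pairs. No 2 libraries of a group agreed within sampling noise. Members with at least 0.1% of all counts were described singly, which took in all 13. Nuclear genes were named where called in both kits in the same comparison. The block, the lists and the tests were chosen with earlier results of these data known. Names came from annotation tables that covered 15078 identifiers.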

Additional observations from a re-analysis of the deposited data

Results flagged for a closer look

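Shares of the block's counts were searched for single libraries far from the rest of their group in 42 sets of 4 to 10 libraries, and 7 stood apart. Chance gives about 1 in 20 for a single set. The sets share libraries and block totals, so the flags are not independent and their number was not tested against chance. In SPIA 8-cell embryos, 020816_09 was the lowest for ENSMMUG00000028695, at 10.9% with the next at 14.3%, and the highest for ENSMMUG00000028677, at 30.8% with the next at 22.7%. That library also had a low block share, of 3.64%. Embryo 011516_02 was the highest for ENSMMUG00000028673, at 20.1% with the next at 16.9%.

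In SoLo 8-cell embryos, 112815_02 was the lowest for ENSMMUG00000028699, at 10.95% with the next at 12.7%, and the highest for ENSMMUG00000028683, at 0.311% with the next at 0.00398%. It is the only SoLo 8-cell embryo whose code is not 020816. In SoLo expanded blastocysts, an unnumbered library of code 111215 was the highest for ENSMMUG00000028695, at 16.0% with the next at 11.1%, and for ENSMMUG00000028680, at 3.595% with the next at 2.10%.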

How the results depend on the processing

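Over 2769 recomputed member values no called member changed sign, while 114 values of members that were not called did. For morulas against 8-cell embryos in SPIA, 4 members were called with total counts, 7 with TMM factors, 7 with DESeq2 size factors in edgeR, 8 with counts outside the block as library size, 10 with DESeq2, 1 with only the 2 groups compared, 1 within code 020816, 0 above 12 M counts and 1 with voom. For expanded blastocysts against morulas in SPIA, 3 were called with total counts, 1 with TMM, 1 with DESeq2 size factors, 0 with counts outside the block, 1 with DESeq2 and 7 with voom. In SoLo, morulas against 8-cell embryos gave 2, and 1 with DESeq2 size factors, with counts outside the block, without the filter or with only the 2 groups compared. For composition in SPIA, morulas against 8-cell embryos gave 0, and 1 with DESeq2 and 1 with voom. Expanded blastocysts against morulas gave 1, and 4 with DESeq2, 6 with voom and 4 under 12 M. Expanded blastocysts against 8-cell embryos gave 1, and 5 with DESeq2, 5 with voom and 0 under 12 M.

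Leaving out each library in turn gave 0 to 4 called members for morulas against 8-cell embryos in SoLo, 0 to 3 for expanded blastocysts against morulas, 5 to 9 for expanded blastocysts against 8-cell embryos, 10 to 12 between kits and 7 to 8 in the composition between kits. The mean block share moved between 12.6% and 16.4% in SoLo 8-cell embryos, between 19.9% and 25.002% in SoLo morulas, and between 42.3% and 62.4% in delayed blastocysts. With the embryo as a block for the pairing of the kits, 12 members were called in place of 11, against 10 over the 11 named embryos without the block, and 8 in place of 7 in composition. The cause of these changes was not tested. Some alternatives were added after seeing the data, among them those on composition by voom, by depth and in SoLo. The standard errors of composition borrow the spread of genes outside the block. The lowest member count in a library was 16, and delayed blastocysts had 2 libraries, so neither supports a narrow limit.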
